A study of Capra hircus and Bos taurus with 7 samples.

Results

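The miRNAs described here are those of white blood cells and of inflammation, measured in extracellular vesicles, the membrane-bound particles that cells release into milk, isolated from reconstituted milk powders. They were taken by name from the mature miRNA tables: every entry whose name, without species prefix and arm, is miR-155, miR-223, miR-146a, miR-146b, miR-150, miR-142 or miR-342. All 7 names were present, as 8 of the 364 entries: bta-miR-155, bta-miR-223, bta-miR-146a, bta-miR-146b, bta-miR-150, bta-miR-342 and both arms of miR-142. The 7 small RNA libraries comprised 1 from a commercial bovine (Bos taurus) milk powder, 3 from skimmed and 3 from whole goat (Capra hircus) milk powder. Goat libraries are called A, B and C within each powder, as in their titles. The labels give no breed, age, herd or treatment of the animals. Each powder had been dissolved in warm water and its vesicles separated by size exclusion chromatography. The labels do not say what the letters mark, so a p-value here speaks only of variation among these libraries, and that variation may be technical. No label says that both goat powders came from the same milk. Fat removal and other differences between the powders therefore cannot be told apart, and with 1 bovine library the same holds for species, product and library.

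A miRNA is a short RNA that guides a protein complex to matching mRNAs and represses them. Several miRNAs are abundant in blood-forming cells, and milk contains macrophages, neutrophils and lymphocytes beside the epithelial cells that secrete it. MiR-223 is the classic miRNA of granulocytes and monocytes (myeloid cells), miR-150 that of mature lymphocytes, and miR-142 is made in all blood lineages. MiR-155 and the miR-146 pair are switched on by inflammatory signalling, in leukocytes and also in epithelial cells, and the miR-146 pair dampens that signalling. MiR-342 lies in an intron of EVL and is found in lymphocytes among other cells. In the RefSeq goat gene table (assembly ARS1.2), 6 of the 7 names had an entry. MIR342 lay inside EVL there, and the others overlapped no annotated gene.

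Depth was 5675489 miRNA reads in the bovine library, 7953807 to 9285189 in skimmed and 6561887 to 11963849 in whole libraries. Levels are given as counts-per-million (CPM) of all miRNA reads. Markers of the secretory epithelium were prominent in every library: 6 epithelial miRNAs (the miR-200 family with miR-141 and miR-429, and miR-375) took 10.6% of the reads of the bovine library, 10.5% to 11.4% in skimmed and 9.84% to 10.4% in whole libraries. The single erythroid entry present, miR-486, stayed at or below 0.00728% of reads in each library. In vesicles from these powders, fewer cells of a type and less RNA per cell cannot be told apart from each other or from other causes.

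**Figure D1:**
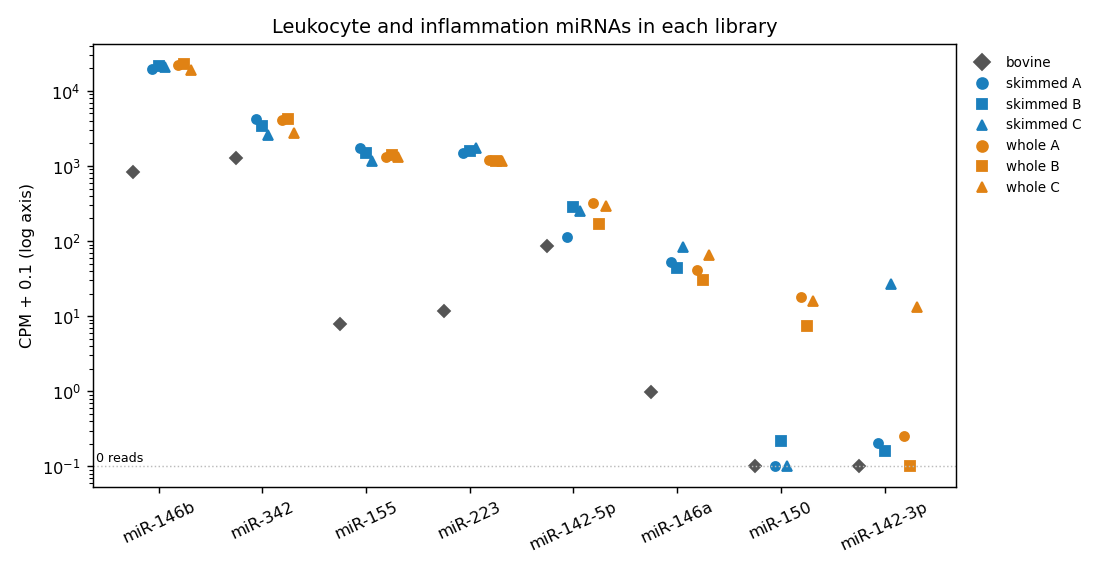
Level of each of the 8 entries in every library, as CPM + 0.1 on a log axis; grey diamonds are the bovine library, blue points skimmed and orange points whole libraries, and the symbol gives the letter. The bovine library lies below every goat library for the first 6 entries, by most for miR-155 and miR-223, and miR-150 is at 0 or 1 read in all skimmed libraries.

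In goat powder the levels of these miRNAs spanned more than 3 orders of magnitude. MiR-146b led, and its mean was 5.89 times that of miR-342. MiR-342 was in turn 2.53 times as high as miR-155, which was level with miR-223. MiR-155 and miR-223 could not be ordered: miR-155 was the higher of the pair in 4 of 6 goat libraries and their ranges overlapped, as did those of the lowest pair, miR-150 and miR-142-3p. Every other pair of neighbours in the order (miR-146b, miR-342, miR-155, miR-223, miR-142-5p, miR-146a, miR-150) had ranges that did not overlap over the 6 goat libraries. Among all 364 entries by goat mean, miR-146b ranked 14, miR-342 ranked 42, miR-155 ranked 59 and miR-223 ranked 60.

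The inflammation-induced members are miR-146b, miR-146a and miR-155. MiR-146b, a brake on signalling from Toll-like receptors, stood at 828 CPM in the bovine library (95% Poisson interval 804 to 852). It stood at 19351, 21732 and 20947 CPM in skimmed A, B and C, and at 21897, 22721 and 18690 CPM in whole A, B and C. Both goat powders covered the same range, and the bovine library lay far below it.

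Its near-identical relative miR-146a, which has the same seed and differs only near the other end, was rare. MiR-146a had 5 reads in the bovine library, or 0.881 CPM (95% Poisson interval 0.286 to 2.06). It reached 52.0, 44.1 and 83.1 CPM in skimmed A, B and C, and 40.5, 30.2 and 65.0 CPM in whole A, B and C, with library C the highest of each powder. MiR-146b outweighed it 252 to 493 times in skimmed and 287 to 753 times in whole libraries. Reads that match both names could be divided between them by the deposited counting, so the low level of miR-146a is uncertain: miR-146b held fractional counts in all 7 libraries and miR-146a was whole in 2 of 7. Fractions were not particular to this pair. Counts were whole in 1 of 7 libraries for miR-223, 2 of 7 for miR-142-5p and 5 of 7 for miR-342.

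MiR-155, which supports B cell, T cell and macrophage responses, is not affected in that way, since its counts were whole numbers in all 7 libraries. It had 44 reads in the bovine library, or 7.75 CPM (95% Poisson interval 5.63 to 10.4). In goat powder it stood at 1711, 1491 and 1157 CPM in skimmed A, B and C, and at 1321, 1417 and 1318 CPM in whole A, B and C. The 3 whole libraries lay inside the wider span of the skimmed ones.

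The myeloid member was miR-223, which restrains granulocyte production and activity. It had 65 reads in the bovine library, or 11.5 CPM (95% Poisson interval 8.84 to 14.6). It stood at 1503, 1604 and 1722 CPM in skimmed A, B and C, and at 1211, 1157 and 1154 CPM in whole A, B and C. All skimmed libraries were above all whole libraries. Of the 209 miRNAs that passed a filter on low counts, 20.1% did not overlap between the powders, higher or lower. The coefficient of variation of miR-223 was 6.83% in skimmed and 2.74% in whole powder, against a median of 19.5% and 18.2% over the 126 miRNAs with a goat mean of at least 100 CPM. Low values were not particular to miR-223: miR-146b had 5.87% and 10.1% in the same order, and the epithelial miR-200b 2.05% and 5.27%. MiR-155 had 19.2% and 4.18%, and miR-342 23.9% and 21.4%.

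The members counted as lymphoid were miR-342, which is also found in other cells, and miR-150, and they behaved unlike each other. MiR-342 stood at 1287 CPM in the bovine library (95% Poisson interval 1258 to 1317), at 4250, 3431 and 2611 CPM in skimmed A, B and C, and at 4039, 4181 and 2757 CPM in whole A, B and C. Library C was the lowest of each goat powder. MiR-150, which controls B cell maturation, had 0 reads in the bovine library, 0, 1 and 0 reads in skimmed A, B and C, and 117, 74 and 187 reads in whole A, B and C. A count of 0 allows up to 3 reads, which is 0.529 CPM in the bovine library.

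The arms of miR-142, a miRNA of all blood lineages, were unequal. MiR-142-5p stood at 85.7 CPM in the bovine library, at 115, 283 and 250 CPM in skimmed A, B and C, and at 319, 168 and 295 CPM in whole A, B and C. MiR-142-3p had 0 reads in the bovine library, 1, 0.5 and 214 reads in skimmed A, B and C, and 1, 0 and 158 reads in whole A, B and C. It was thus above 1 read in library C of each powder alone, where miR-142-5p was not the highest. The cause of this was not tested.

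As a group the 8 entries took 0.222% of miRNA reads in the bovine library (95% Clopper-Pearson interval 0.218 to 0.226). They took 2.70%, 2.86% and 2.68% in skimmed A, B and C, and 2.88%, 2.97% and 2.43% in whole A, B and C. The means were 2.75% ± 0.0984 in skimmed and 2.76% ± 0.289 in whole powder (SD, n = 3 each). The difference of -0.02 percentage points (skimmed minus whole) had p = 0.9 in an exact two-sided permutation test, whose smallest possible p with 3 libraries in each group is 0.1. Leaving out any of skimmed A, skimmed C, whole A or whole B turned its sign, within -0.18 to 0.09 percentage points.

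The make-up of these reads differed between bovine and goat. In the bovine library miR-342 took 58.0% of them (95% Clopper-Pearson interval 57.1 to 58.8) and miR-146b 37.3% (36.4 to 38.1). In goat, miR-146b took 75.3% ± 3.29 in skimmed and 76.5% ± 0.498 in whole powder, and miR-342 took 12.5% ± 3.04 in skimmed and 13.1% ± 1.56 in whole powder (SD, n = 3 each). MiR-155 and miR-223 made up 0.349% and 0.516% of these reads in the bovine library, while in goat each took between 3.90% and 6.43% in every library. Between the goat powders the share of miR-146b did not differ beyond the spread of libraries (-1.15 percentage points, exact two-sided permutation p = 0.8).

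**Figure D2:**
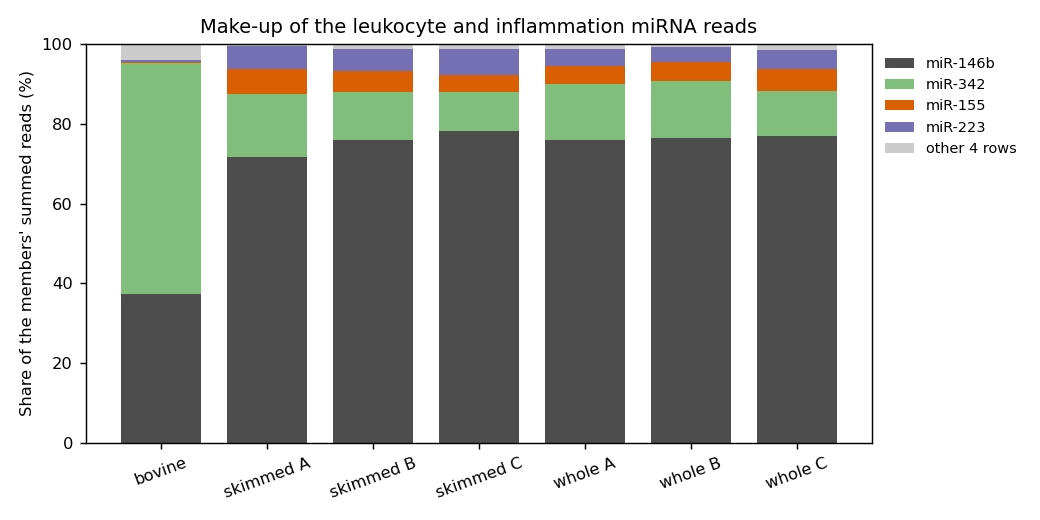
Share of each miRNA in the summed reads of the 8 entries, in percent, with 1 bar for each library. MiR-342 fills 58.0% of the bovine bar, whereas miR-146b fills 71.7% to 78.2% of the goat bars.

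The bovine library held less of these miRNAs than every goat library for each of the 6 entries it detected. MiR-155 was lower than the goat mean by 181-fold (95% interval 135 to 249), miR-223 by 122-fold (95.3 to 157), miR-146a by 59.6-fold (25.5 to 183) and miR-146b by 25.2-fold (24.5 to 26.0). The other detected members were closer, with miR-342 lower by 2.75-fold (2.69 to 2.82) and miR-142-5p by 2.78-fold (2.54 to 3.04). These intervals carry the Poisson error of the bovine count alone. Amplified reads without molecular identifiers are not independent, so here and elsewhere intervals and floors reflect nothing but counting error. The single bovine library allows no test of the difference. If any of the few bovine reads had been carried over from goat libraries, which was not tested, these folds would be lower bounds.

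For a background, 125 miRNAs were taken whose level, averaged between the goat mean and the bovine library, was at least 100 CPM. Of the 8 entries 5 were among them, of which 3 were at least 4-fold below the goat mean, against 24.8% of the 125. All 5 were below every goat library, against 48.8% of the 125. MiR-155, miR-223 and miR-142-5p are among the 5 through their goat level alone, so these counts are a description and no support. The 5 had a median log2 ratio of bovine to goat of -4.66, beside -0.35 over the 125. That median rests on the same choice of entries and is likewise a description only. Epithelial miRNAs had a median of -0.48, with 0 of 6 at least 4-fold below. A wider list of immune and inflammation miRNAs (20 entries, among them miR-21, miR-125a, miR-125b, the miR-181 family and the miR-17-92 cluster) had a median of -0.72, with 1 of its 9 entries at that level 4-fold or more below (miR-27a-3p) and 2 as far above (miR-125a and miR-125b).

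MiR-155 and miR-223 were not alone at the bottom of the bovine library. Of the 126 miRNAs with a goat mean of at least 100 CPM, a choice that favours miRNAs low in bovine, 28 lay 69.6 to 189 times below the goat mean, and the next miRNA was 33.8 times below; the boundary was chosen after the values were seen. MiR-155 was second from the lowest and miR-223 was number 19. All 28 had few bovine reads, from 4 to 95.5, and these amounted to 5.39 to 14.5 reads for each 10000 reads of the same miRNA in the 6 goat libraries together. For miR-155 the figure was 5.77 and for miR-223 it was 8.73. The upper end of that band follows from where the boundary was set. At the lower end, none of the 126 miRNAs had fewer than 4 bovine reads. For miR-146b the figure was 41.8 and for miR-342 it was 383. Whether the few bovine reads of miR-155 and miR-223 came from the bovine powder or were carried over from goat libraries was not tested.

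**Figure D3:**
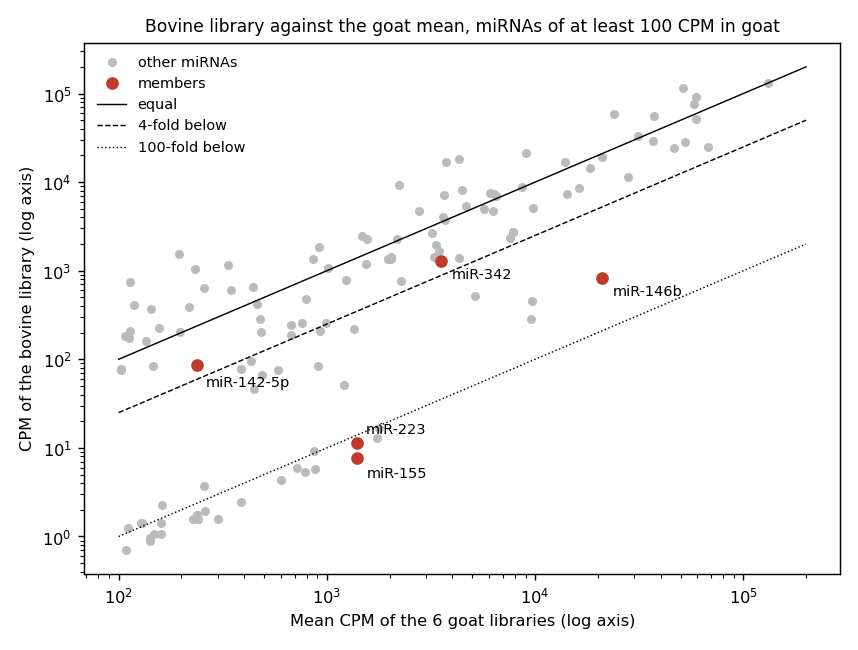
CPM of the bovine library against the mean CPM of the 6 goat libraries for 126 miRNAs with a goat mean of at least 100 CPM, both on log axes; red points are the members. MiR-155 and miR-223 lie among the 28 miRNAs near or below the 100-fold line, apart from miR-146b, miR-342 and miR-142-5p.

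MiRNAs with the most similar profile over the 7 libraries were found by the root mean square difference of centred log2(CPM + 1), among the 125 other miRNAs of at least 100 CPM in goat. For miR-223 the nearest was miR-143, a miRNA of smooth muscle and stroma, at a difference of 0.12, then miR-494 at 0.28 and miR-224 at 0.31. For miR-146b these were miR-16a at 0.16, miR-16b at 0.19 and miR-27a-3p at 0.35. For miR-342 they were miR-181a at 0.24, let-7f at 0.27 and miR-375 at 0.28. The bovine library is the lowest point of the profiles of miR-223, miR-146b and miR-342. It is also that of miR-143, which had 16.8 CPM in the bovine library against a goat mean of 1774 CPM. A drop of such size in 1 library weighs heavily in this measure of likeness.

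Skimmed powder was then compared with whole powder, over the 209 miRNAs that passed the filter on low counts, with edgeR's quasi-likelihood test and Benjamini-Hochberg adjustment. Of the 8 entries 7 were tested, miR-142-3p being too low. In edgeR 0 members passed the adjusted threshold of 0.05, against 0.478% of the 209, and limma-voom called 0 members too. Before adjustment, 2 of the 7 had an edgeR p under 0.05, against 10.5% of all tested. Likewise 2 of the 7 did not overlap between the powders, against 20.1% of all tested. In both counts these were miR-223, higher in skimmed, and miR-150, lower in skimmed. The members' median log2 fold change was 0.06, beside 0.03 over all 209.

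MiR-223 averaged 1610 ± 110 CPM in skimmed and 1174 ± 32.2 CPM in whole powder (SD, n = 3 each). Its log2 fold change was 0.55 ± 0.14 (SE), with an adjusted p of 0.12 in edgeR. DESeq2's Wald test called it (adjusted p = 0.034) as the 1 member among its calls, which took 6.22% of all tested miRNAs. Independent filtering gave many low miRNAs no adjusted p, among them miR-150, miR-146a and miR-142-5p. The called share of the miRNAs that had one was therefore higher than 6.22%. With independent filtering turned off, an alternative chosen after the data were seen, DESeq2 no longer called miR-223 (adjusted p = 0.076) but called miR-150 (0.048), at 5.74% of all tested. Over all alternatives the adjusted p of miR-223 ran from 0.034 to 0.37 and its log2 fold change from 0.40 to 0.58.

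MiR-150 had 1 read over the skimmed libraries and 378 over the whole libraries, a pooled ratio in CPM of 0.00297 (exact 95% interval 7.5e-05 to 0.0167, counting error only). Its edgeR adjusted p was 0.12, and over the alternatives it ran from 0.048 to 0.52. The fitted fold change of so low a count depends on the prior count and is not given. At 7.30 to 17.8 CPM in whole powder it was the lowest tested member. Some other entries of so low a level were uneven between libraries of 1 powder. MiR-21-3p had 0, 0 and 1 reads in skimmed A, B and C, and 140, 0 and 205 in whole A, B and C. MiR-132 had 402, 0 and 1 reads in skimmed A, B and C, and 0, 1 and 0 in whole A, B and C. The interval of miR-150 does not carry such variation between libraries. Neither miR-21-3p nor miR-132 passed the filter on low counts, and neither was above 1 read throughout a powder, as miR-150 was in whole powder. Among tested miRNAs outside the members, miR-381 and miR-296-3p also had large fitted decreases in skimmed powder (edgeR adjusted p = 0.12 each). MiR-1271 had a large fitted change in the other direction (edgeR adjusted p = 0.52). The log2 fold changes of the other tested members were small for their SE: miR-146b 0.06 ± 0.11, miR-342 0.01 ± 0.23, miR-155 0.20 ± 0.19, miR-142-5p -0.20 ± 0.55 and miR-146a 0.48 ± 0.97 (SE; edgeR adjusted p 0.89 to 0.99). The value of miR-342 turned below 0 under each of the other scalings tried, and that of miR-146b with library totals or upper-quartile scaling.

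**Figure D4:**
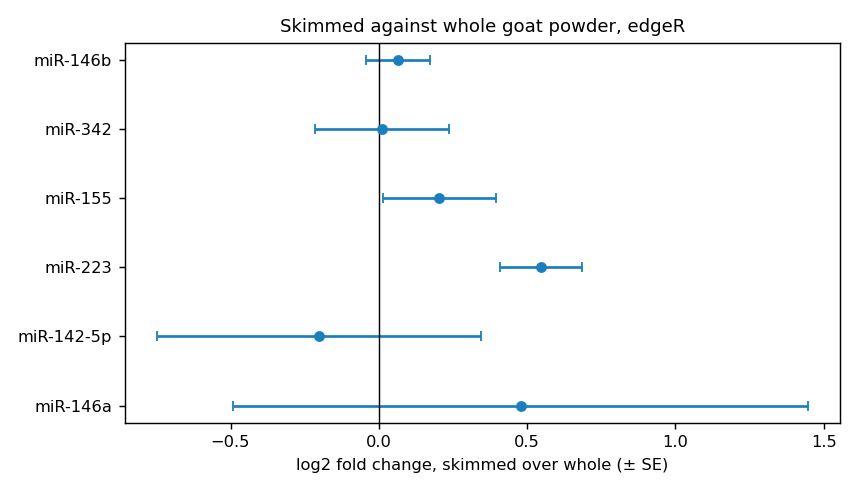
Log2 fold change of skimmed over whole powder with its SE, from edgeR's quasi-likelihood fit over 209 miRNAs, for 6 of the 7 tested members; miR-150, at 0 or 1 read in skimmed libraries, is not drawn. MiR-223 at 0.55 is the farthest from 0 for its SE, and the bars of miR-142-5p and miR-146a are wide.

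The members counted as myeloid and lymphoid were set against each other as the log2 ratio of miR-223 to the sum of miR-150 and miR-342. To each side 1 CPM was added. Since miR-342 is also found in other cells, the ratio is not a measure of myeloid against lymphoid cells. The ratio was -6.69 in the bovine library. It was -1.50, -1.10 and -0.60 in skimmed A, B and C, and -1.74, -1.86 and -1.26 in whole A, B and C, so miR-223 was below the sum of both lymphoid members in every library. Taken singly, it was below miR-342 and above miR-150 in each. The mean was -1.07 ± 0.45 in skimmed and -1.62 ± 0.31 in whole powder (SD, n = 3 each). Their difference of 0.56 had p = 0.2 in an exact two-sided permutation test (0.43 adjusted over the 17 per-library measures computed), and skimmed A lay below whole C. MiR-342 supplied nearly all of the lymphoid sum: with miR-342 alone the difference was 0.55 (p = 0.2), and with miR-150 alone it was 4.18 (exact permutation p = 0.1, the smallest possible). The size of the value with miR-150 alone depends on the 1 CPM added, since skimmed libraries held almost no miR-150 reads. Without skimmed C the difference for the sum was 0.32.

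Relative to the epithelial miRNAs, miR-223 stood at 0.108 CPM for each 1000 CPM in the bovine library. It stood at 13.6, 14.1 and 16.5 in skimmed A, B and C, and at 12.3, 11.1 and 11.2 in whole A, B and C. The skimmed libraries again lay above the whole ones (exact permutation p = 0.1, the smallest possible, and 0.34 adjusted over 17 measures). That measure uses the same miR-223 reads as before and is no separate support. All 8 entries summed came to 251 ± 5.86 in skimmed and 272 ± 30.6 in whole powder (SD, n = 3 each; exact permutation p = 0.4) and to 20.9 in the bovine library. The 3 stromal and endothelial entries, of which miR-143 is the main one, took 0.00172% of reads in the bovine library, 0.169% to 0.246% in skimmed and 0.149% to 0.165% in whole libraries, and thus moved with miR-223. Their part in the result was not tested. The other entries of that list were uneven. MiR-126-3p, of endothelium, had 0 CPM in the bovine library, 20.2, 43.6 and 0 CPM in skimmed A, B and C, and 0 CPM in each whole library. MiR-145, of smooth muscle, had 0.352 CPM in the bovine library, 0.323, 47.0 and 16.2 CPM in skimmed A, B and C, and 0, 101 and 0.251 CPM in whole A, B and C.

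**Figure D5:**
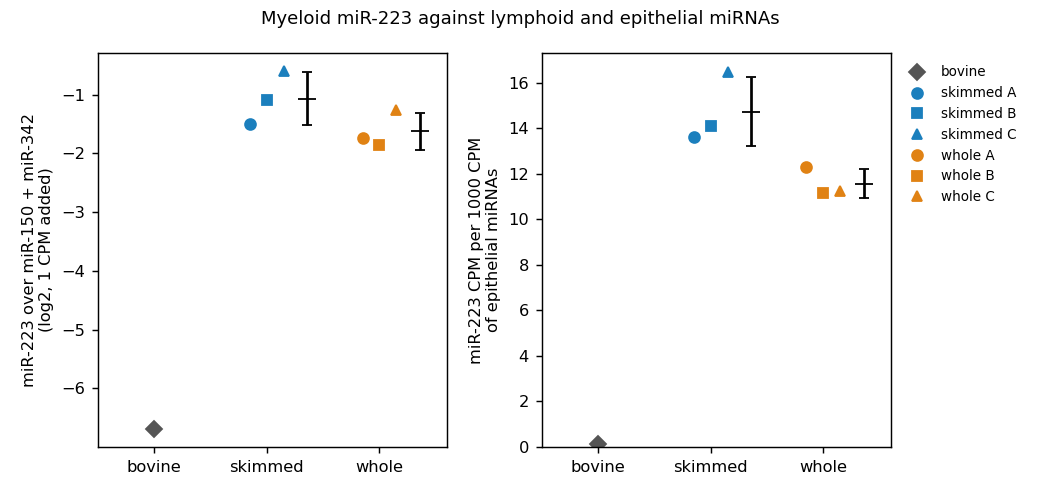
Left, log2 ratio of miR-223 to miR-150 plus miR-342 (1 CPM added); right, CPM of miR-223 for each 1000 CPM of 6 epithelial miRNAs; points are libraries, and black bars give the mean ± SD of each goat powder (n = 3). The bovine library is at -6.69 and 0.108, and skimmed and whole libraries overlap on the left but not on the right.

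Between the goat powders, the wider immune list held 15 tested entries. In edgeR 0 of them passed the adjusted threshold. Before adjustment, 3 had p under 0.05 (10.5% of all tested did), namely miR-125a, miR-125b and miR-27a-3p, each lower in skimmed. Limma-voom called 0, and DESeq2's Wald test called 2, miR-125a and miR-125b. DESeq2 called 6.22% of all tested, and a higher share of those given an adjusted p. The 3 entries under 0.05 before adjustment were, with miR-23a, also the list's 4 entries whose libraries did not overlap, against 20.1% of all tested. The list's median log2 fold change was -0.21, beside 0.03 over all 209. It took 14.8% of reads in the bovine library, 10.2% ± 0.703 in skimmed and 12.4% ± 0.170 in whole powder (SD, n = 3 each; exact permutation p = 0.1, the smallest possible, and 0.34 adjusted over 17 measures). Its most abundant entry by goat mean was miR-21-5p, a miRNA raised in many inflamed tissues, at 52140 CPM in the bovine library, 51906 ± 9773 CPM in skimmed and 66912 ± 6311 CPM in whole powder. The next by goat mean were miR-92a, which in the bovine library was above miR-21-5p, at 58611, 23177 ± 3413 and 24600 ± 6062 CPM in bovine, skimmed and whole powder, and miR-23a, at 7280, 12945 ± 825 and 15426 ± 925 CPM in the same order. In the epithelial list 0 of 6 entries passed in edgeR, with 3 at an unadjusted p under 0.05 against 10.5% of all tested. Limma-voom called 0 of them and DESeq2's Wald test called 3 (miR-200c, miR-141 and miR-375). That stands against 6.22% of all tested, and a higher share of those given an adjusted p. In the stromal and endothelial list 0 of 2 tested entries passed in edgeR, with 1 at an unadjusted p under 0.05 and 0 called by either other tool. DESeq2 gave miR-145 of that list no adjusted p. The erythroid miR-486 passed in neither edgeR nor limma-voom, and DESeq2 gave it no adjusted p either.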

How the data were processed

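Small RNA libraries were size-selected on acrylamide gel and sequenced as single-end reads of 50 bases, per the labels' protocols. The authors deposited 1 table of estimated counts per library, not normalized; many values are fractions, and the sources used here do not name the aligner, counter, miRNA release or build. Goat reads carry bovine miRNA names, and how differing goat sequences were treated is not given either. No coordinates are therefore printed, and no mature sequence, as none was in the tables used here.

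CPM was computed over all 364 entries. Estimated counts were rounded for tests across all miRNAs: edgeR 4.0.16 (default filter, TMM, quasi-likelihood, Benjamini-Hochberg, threshold 0.05) in R 4.3.3, with DESeq2 1.42.0 and limma 3.58.1 as alternatives. The edgeR fit was tested on simulated data, with planted changes larger than any fitted for a member other than miR-150. Recovery was scored among abundant miRNAs alone. It thus does not show whether a change as small as that of miR-223, or at a level as low as that of miR-150, would be found. The SE is the log2 fold change divided by the square root of F. Single values used exact permutation tests (scipy 1.17.1). The bovine library was described with exact Poisson and Clopper-Pearson intervals at 95%.

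Other lists were epithelial, erythroid, stromal and endothelial, and wider immune miRNAs; 3 nearest profiles are named for miR-223, miR-146b and miR-342, and the 3 most abundant entries of the wider list. Members and lists were chosen with earlier results of these data known. The level averaged over both species for the bovine background was set after the data were seen. Shared seeds could not be looked up.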

Additional observations from a re-analysis of the deposited data

How the results depend on the processing

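No member passed edgeR's threshold under any scaling, filter, left-out library or limma-voom. DESeq2's Wald test called 1 member with and 1 without independent filtering, the second an added alternative. Over all miRNAs, 1 was called in the chosen fit, 0 with upper-quartile scaling, library totals, DESeq2 size factors, the replicate block or let-7a-5p left out, 2 with no filter, 4 at a mean of at least 100 CPM, 13 and 12 by DESeq2 with and without independent filtering, and 0 to 1 with a library left out. The letters A to C were tried as a replicate block: same-letter libraries of both powders correlated in their deviations at 0.20 (A), 0.13 (B) and 0.06 (C), each the highest of its row, which is a hint from the data and not from the design; the block left 0 members called.

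The share of reads, skimmed minus whole, was 0.0724 percentage points without let-7a-5p in the total and 0.0269 without miR-146b, against -0.02, and ran from -0.181 to 0.0878 with a library left out. The share of miR-146b ran from -2.58 to 0.65 points (above 0 without skimmed A), and the myeloid to lymphoid difference from 0.32 to 0.77, with a library left out. Over all 10 alternatives that difference was above 0, at most 4.18 with miR-150 alone, a value whose size depends on the CPM added. Log2 fold changes near 0 turned sign. MiR-342 was at -0.0291 with DESeq2 size factors and by DESeq2 with and without independent filtering, -0.093 with library totals, -0.14 with upper-quartile scaling, -0.0547 with no filter, -0.0107 at 100 CPM and -0.0048 with the block, and ran from -0.24 to 0.17 with a library left out. MiR-146b was at -0.0294 with library totals and -0.0887 with upper-quartile scaling, and miR-142-5p ran from -0.47 to 0.0627 with a library left out. The causes were not tested. With let-7a-5p and let-7b left out of the totals, the bovine log2 ratios of all detected members rose by similar amounts. That of miR-146b moved to -4.54 from -4.66, of miR-155 to -7.38 from -7.50 and of miR-142-5p to -1.34 from -1.47. The move was less than the spread of goat libraries for all but miR-146b, whose goat spread was the narrowest. Depth limits miR-150, miR-142-3p and bovine miR-146a most, at 0 to 214 reads.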
